A study of Mus musculus with 9 samples.

Results

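Samd9l, Cmpk2, Rsad2, Xaf1 and Rtp4 are 5 interferon-induced genes whose transcript levels were ordered differently in 2 mutants of mouse embryonic fibroblasts (MEFs). They are 5 of the 47937 genes in the count table and were chosen by name, for the order and direction of their levels in the 3 genotypes sequenced. Their differences between genotypes are therefore described and not tested. Each genotype was sequenced in 3 libraries. WT cells are MEFs of a clone in which Eset1, a histone H3 lysine 9 (H3K9) methyltransferase also called Setdb1, can be deleted with tamoxifen through a CreERT2 recombinase. S1S2 cells carry CRISPR/Cas9 frameshift mutations in Suv39h1 and Suv39h2 in that background. G9Gl cells carry such mutations in Ehmt2 and Ehmt1, the genes of the H3K9 methyltransferases G9a and Glp. Both mutants keep the conditional Eset1 allele, and each is a single clone, picked because western blots did not detect the targeted enzymes, so genotype and clone cannot be told apart. The paper states that, once genes had been disrupted, a CreERT2 construct with puromycin resistance was introduced again and the lines stayed in puromycin. Such handling cannot be told apart from genotype either. No age or treatment of the cells is given by the labels.

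Type I interferon is a secreted signal of infected cells. It binds a receptor of 2 chains, and the kinases bound to that receptor activate a complex of STAT proteins and Irf9, which binds the interferon-stimulated response element (ISRE) near the start of many genes. The products of these genes act against viruses in different ways. Samd9l encodes a large cytoplasmic protein that restricts viruses and cell growth. Rsad2 encodes viperin, an enzyme that makes an altered cytidine nucleotide which ends viral RNA chains, and Cmpk2 encodes a mitochondrial nucleotide kinase of the cytidine and uridine pathway. Xaf1 encodes a partner of the apoptosis inhibitor Xiap that favours cell death. Rtp4 encodes a receptor transporter protein that carries some G protein-coupled receptors to the cell surface and also acts against viruses.

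The sequence before the start of each gene is shown because the same transcription factors are known to drive most interferon-induced genes. RefSeq promoters of GRCm38.p6 were found for 4 of the 5 genes. Rtp4 had no entry in the table. Windows of 300 bases were searched on both strands for the ISRE (GAAA, any 2 bases, GAAA), for the element TTCNNNGAA bound by STAT dimers, and for TATAAA. After the sequences had been seen, a wider pattern was added, a pair of GAAA with 1 to 3 bases between, which takes in every ISRE. The 250 bases before each start follow, 5′ to 3′ on the strand of the gene, and capitals mark any of these matches.

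Samd9l, chr6:3399572-3399821, minus strand: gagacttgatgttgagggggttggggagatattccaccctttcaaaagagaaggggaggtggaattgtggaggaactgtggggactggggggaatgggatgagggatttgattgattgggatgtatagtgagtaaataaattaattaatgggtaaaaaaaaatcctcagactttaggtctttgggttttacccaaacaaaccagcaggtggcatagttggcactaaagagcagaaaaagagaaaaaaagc

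Cmpk2, chr12:26468965-26469214, plus strand: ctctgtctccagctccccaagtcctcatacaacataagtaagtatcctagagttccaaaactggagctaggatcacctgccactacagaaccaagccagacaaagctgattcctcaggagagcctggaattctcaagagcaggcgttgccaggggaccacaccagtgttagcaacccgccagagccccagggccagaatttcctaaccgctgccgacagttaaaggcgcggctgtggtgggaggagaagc

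Rsad2, chr12:26456453-26456702, minus strand: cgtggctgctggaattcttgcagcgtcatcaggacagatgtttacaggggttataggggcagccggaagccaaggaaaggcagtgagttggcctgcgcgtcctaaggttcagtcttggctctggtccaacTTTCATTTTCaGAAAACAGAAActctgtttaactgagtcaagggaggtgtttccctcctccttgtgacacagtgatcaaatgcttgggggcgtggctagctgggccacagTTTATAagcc

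Xaf1, chr11:72301379-72301628, plus strand: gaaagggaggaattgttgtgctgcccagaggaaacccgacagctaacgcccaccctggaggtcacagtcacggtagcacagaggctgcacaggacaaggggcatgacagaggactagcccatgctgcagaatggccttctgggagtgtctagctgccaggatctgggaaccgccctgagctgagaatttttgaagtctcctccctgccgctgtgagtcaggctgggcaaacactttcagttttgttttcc

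In 2 genes the wider pattern lay after the start, at base 32 of Samd9l and base 11 of Xaf1, and these sites are shown with up to 8 bases on each side.

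Samd9l site, chr6:3399522-3399548, minus strand: tcagaatcGAAACTGGAAActgaagca

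Xaf1 site, chr11:72301631-72301655, plus strand: tgtgcaaaGAAACGAAActccacag

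Rsad2 alone of the 4 held the ISRE, 120 bases before its start on the opposite strand, with a second GAAA pair beside it and a TATAAA match 10 bases before the start, also on the opposite strand. The Samd9l and Xaf1 sites have 3 bases and 1 base between the GAAA repeats. Cmpk2 held none of the patterns in this window, and TTCNNNGAA was found in none of the 4. Over all 32851 promoters of the table, 3.44% held the ISRE, 8.61% the wider pattern, 8.3% TTCNNNGAA and 13.6% TATAAA. The Samd9l stretch held 0 CG pairs in 250 bases, against 6 in Cmpk2, 6 in Rsad2, 5 in Xaf1 and a median of 6 over all promoters. Cmpk2 and Rsad2, which had the same order in the mutants, shared no match.

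Samd9l was the gene that moved in opposite directions. Its levels in CPM, read counts scaled to the size of the library, were 22.7, 22.9 and 27.3 in the WT libraries, 65.0, 70.4 and 72.4 in S1S2, and 6.35, 6.54 and 6.69 in G9Gl. Every S1S2 library lay above and every G9Gl library below all WT libraries. The mean was 2.85-fold higher in S1S2 than in WT, a log2 difference of 1.51 (SE 0.10, n = 3 per genotype), and 3.72-fold lower in G9Gl than in WT, a log2 difference of -1.88 (SE 0.09). Between the mutants the level differed 10.6-fold. Samd9l (ENSMUSG00000047735.14) is a protein-coding gene at chromosome 6, 3372257 to 3399572, of GRCm38, and shares no 75-base stretch with another annotated gene.

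Cmpk2 and Rsad2 were higher in both mutants than in WT and highest in S1S2. Rsad2 measured 3.91, 3.50 and 3.84 CPM in WT, 65.1, 63.4 and 69.0 CPM in S1S2, and 16.1, 11.96 and 12.4 CPM in G9Gl. The S1S2 mean was 17.6-fold above WT (log2 difference 4.11, SE 0.06) and the G9Gl mean 3.602-fold (1.82, SE 0.14). G9Gl was thus 4.88-fold below S1S2, and no library of a genotype reached those of another. Cmpk2 measured 2.86, 2.22 and 2.39 CPM in WT, 24.4, 24.0 and 26.4 CPM in S1S2, and 9.41, 6.07 and 5.97 CPM in G9Gl. Its means were 10.03-fold above WT in S1S2 (log2 difference 3.30, SE 0.11) and 2.88-fold in G9Gl (1.47, SE 0.24), again without overlap. The spread of Cmpk2 in G9Gl, an SD of 27.3% of the mean, was the widest of the 5 genes in any genotype and came from replicate 1. Cmpk2 (ENSMUSG00000020638.7, 26469204 to 26479837) and Rsad2 (ENSMUSG00000020641.15, 26442746 to 26456452) are protein-coding genes on chromosome 12 and are transcribed away from each other from starts 12.752 kb apart, so they are not independent loci. Rsad2 shares no 75-base stretch with other genes, nor does Cmpk2.

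Xaf1 and Rtp4 were also higher in both mutants, but highest in G9Gl. Xaf1 measured 2.28, 1.62 and 2.55 CPM in WT, 8.73, 8.35 and 9.26 CPM in S1S2, and 44.5, 32.8 and 36.5 CPM in G9Gl. Its mean was 4.09-fold above WT in S1S2 (log2 difference 2.02, SE 0.19) and 17.7-fold in G9Gl (4.11, SE 0.23), so the fold of Xaf1 in G9Gl was close to that of Rsad2 in S1S2. G9Gl exceeded S1S2 by 4.32-fold, and the 3 genotypes did not overlap. Xaf1 (ENSMUSG00000040483.15, 72301629 to 72313733), a protein-coding gene of chromosome 11, shared 0.497% of its 75-base stretches with other genes.

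Rtp4 measured 2.18, 2.18 and 2.29 CPM in WT, 12.8, 14.1 and 16.5 CPM in S1S2, and 25.02, 20.3 and 21.3 CPM in G9Gl. The mean was 6.52-fold above WT in S1S2 (log2 difference 2.66, SE 0.11), and the log2 difference of G9Gl from WT was 3.28 (SE 0.09). The difference between the mutants was the smallest of the 5 genes, 1.53-fold (log2 difference 0.62, SE 0.14), and under the 2-fold limit used for calls, although the libraries did not overlap. Rtp4 (ENSMUSG00000033355.5, 23520291 to 23614222) is a protein-coding gene of chromosome 16. It was the least certain of the 5, because 10.5% of its 75-base stretches also occur in Gm45338, which has no row in the table, and because its annotated span overlaps the oppositely oriented Masp1. Whether strand was used in counting is not stated.

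**Figure D1:**
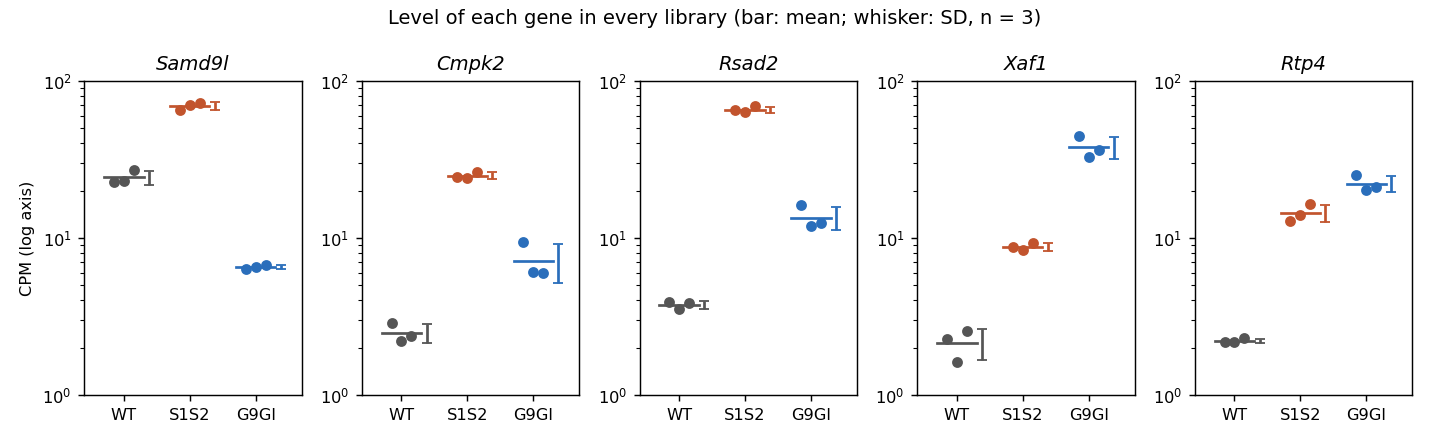
CPM (log axis) of the 5 genes in each of the 9 libraries, grouped by genotype. Points are libraries, bars the means and whiskers the SD of 3 libraries. Samd9l is highest in S1S2 and lowest in G9Gl, Cmpk2 and Rsad2 peak in S1S2 and Xaf1 and Rtp4 in G9Gl.

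For all 5 genes the libraries did not overlap in any comparison, which held for 56% of the 15540 genes tested in S1S2 against WT, for 52.8% in G9Gl against WT and for 60.8% between the mutants. By the call rule used for other genes (edgeR adjusted p of at most 0.01 and at least 2-fold), 9%, 10.2% and 13.1% of all genes were called in these comparisons. Since the 5 genes were chosen on these very contrasts, nothing is read from these shares. The orders of the 5 genes are likewise fixed by that choice. The order of Samd9l, called higher in S1S2 and lower in G9Gl, was found in 88 genes (0.566%), and that of Cmpk2 and Rsad2, called higher in both mutants and lower in G9Gl than in S1S2, in 23 (0.148%). The order of Xaf1, called higher in both and higher again in G9Gl, was found in 80 (0.515%). Rtp4, without a call between the mutants, belonged to 148 genes (0.952%) of that kind, among the 251 genes (1.62%) called higher in both. The comparisons of the mutants with WT use the same 3 WT libraries. In bulk RNA, fewer cells with a transcript and less RNA per cell cannot be told apart.

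Divided by exon length, so that genes can be compared with each other, the levels changed rank with genotype. In WT, Samd9l was the highest at 4.48 CPM per kb, followed by Rtp4 (1.04), Rsad2 (0.865), Cmpk2 (0.597) and Xaf1 (0.458). The libraries of Cmpk2 and Xaf1 overlapped on this scale. In S1S2, Rsad2 led at 15.2 CPM per kb, above Samd9l (12.8), Rtp4 (6.79), Cmpk2 (5.99) and Xaf1 (1.87), with overlap between Rtp4 and Cmpk2. In G9Gl the sequence was Rtp4 (10.4), Xaf1 (8.09), Rsad2 (3.12), Cmpk2 (1.72) and Samd9l (1.20), with no overlap between neighbours in the order, although the lowest Rtp4 library (9.52) hardly exceeded the highest of Xaf1 (9.49). Samd9l thus went from first in WT to last in G9Gl, and Xaf1 from last in WT and S1S2 to the second place in G9Gl.

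Ratios of read counts within a library do not depend on library size or on the scaling factor. Rsad2 over Cmpk2, the divergent pair, was 1.52 ± 0.133 in WT, 2.64 ± 0.0282 in S1S2 and 1.92 ± 0.189 in G9Gl (SD, n = 3). The pair therefore did not keep a fixed ratio across genotypes, and Rsad2 was highest relative to Cmpk2 in S1S2. Xaf1 over Rtp4 was 0.966 ± 0.197 in WT, 0.612 ± 0.0616 in S1S2 and 1.70 ± 0.083 in G9Gl. Rsad2 over Xaf1 was 1.795 ± 0.336 in WT, 7.50 ± 0.0858 in S1S2 and 0.356 ± 0.0132 in G9Gl. Samd9l over Rsad2 was lower in both mutants than in WT, at 6.49 ± 0.659 in WT, 1.05 ± 0.0553 in S1S2 and 0.493 ± 0.0855 in G9Gl.

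**Figure D2:**
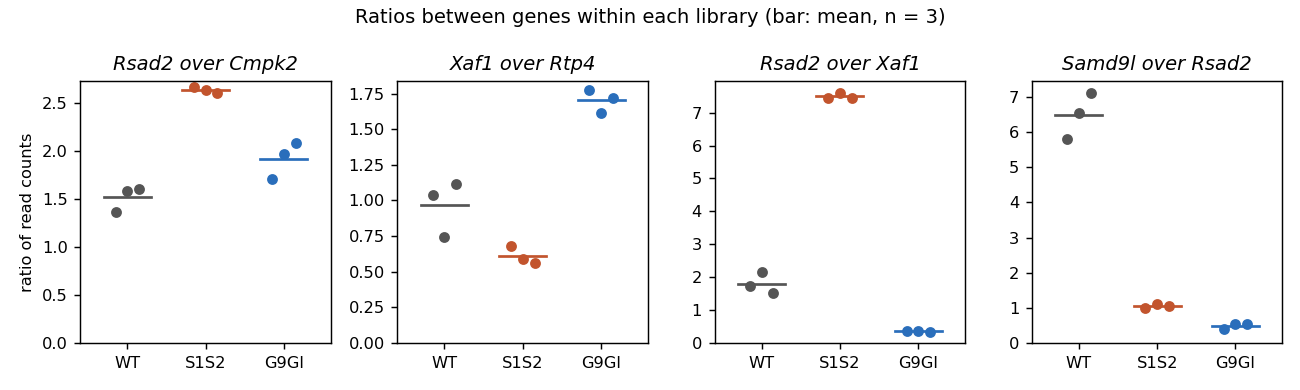
Ratio of read counts of gene pairs within each library (linear axes from 0), with points for the 9 libraries and bars for the mean of 3. Rsad2 over Xaf1 is near 7.50 in S1S2 and near 0.356 in G9Gl, with WT between.

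The genes were chosen for order and direction across the libraries of the 3 genotypes. The variation between libraries of a genotype is described here and was not tested. In G9Gl, replicate 1 was the highest library for Cmpk2, Rsad2, Xaf1 and Rtp4, which exceeded their genotype means of log2 CPM by 0.43, 0.27, 0.24 and 0.18. Samd9l did not follow, at -0.04 in the same library. The 79 measured effector genes of the interferon response, the proteins that act downstream of the receptor, had a median deviation of 0.18 in this library, against 0.001 for all genes. In S1S2, replicate 3 was the highest library for all 5 genes, with deviations of 0.07 to 0.19 and a median of 0.11 for the effectors. In G9Gl, Samd9l therefore stood apart from the other 4 genes in its variation among replicates as well as in its direction, as a description of 3 libraries. A small SD in G9Gl was not particular to Samd9l. Other interferon genes had one too, such as Cxcl10 (36.95 ± 1.22 CPM) and Lgals9 (81.3 ± 2.97 CPM).

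The other genes of the interferon response were examined by the same calls. Of 148 listed genes, 126 were measured above the filter. Between S1S2 and WT, 38 were higher and 2 lower by the call rule (30.2% and 1.59%, against 4.66% and 4.34% of all genes). Between G9Gl and WT, 74 were higher and 0 lower (58.7% against 6.77% of all genes higher, and 3.4% of all genes lower). With the fold limit left out (edgeR adjusted p of at most 0.01), 7 were lower in G9Gl than in WT. Their median log2 differences were 0.58 in S1S2 and 1.42 in G9Gl, where the median of all genes was -0.003 and -0.007. Between the mutants 48 were higher in G9Gl and 5 lower (38.1% and 3.97%, against 7.97% and 5.08% of all genes), with a median of 0.57. Without replicate 2 of G9Gl, 51 were higher and 3 lower, and with a test against a 2-fold change (glmTreat) 35 were higher and 2 lower. By adjusted p alone (edgeR, at most 0.01), 76 were higher in G9Gl than in S1S2 and 18 lower.

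Of the 126 genes, 37 were called higher in G9Gl and not called in S1S2, an order that none of the 5 genes had and that 4.2% of all genes had. Of these, 25 were also higher in G9Gl than in S1S2 (3.49% of all genes). A further 20 were called higher in both mutants and higher in G9Gl than in S1S2, as Xaf1 was (0.515% of all genes), and 13 were higher in both without a call between the mutants, as Rtp4 was (0.952%). Called in neither mutant were 49, beside 84.8% of all genes. Cmpk2 and Rsad2 shared their order, found in 0.148% of all genes, with 3 of the 126: Ifit1, which binds viral RNA ends, Oasl1, of the oligoadenylate synthetase-like family, and the chemokine gene Cxcl10. These 3 and the 2 members make up 5 of the 23 genes of that order in the whole table. Cxcl10 was at 9.39 ± 0.966 CPM in WT, 133 ± 3.49 in S1S2 and 36.95 ± 1.22 in G9Gl. Oasl1 was at 4.03 ± 1.13, 47.6 ± 2.47 and 14.7 ± 1.46 CPM, and Ifit1 at 10.4 ± 0.93, 91.3 ± 7.32 and 43.1 ± 8.89 CPM. Against S1S2, G9Gl was lower by log2 differences of -1.85 for Cxcl10 (edgeR adjusted p = 2.02e-14), -1.69 for Oasl1 (3.04e-10) and -1.10 for Ifit1 (7.67e-08). Without replicate 2 of G9Gl, the fitted log2 difference of Ifit1 was -0.99, under the fold limit. The other 2 genes lower in G9Gl than in S1S2 were Ifit2 (-1.01) and Irf5, a transcription factor of the interferon regulatory family (-1.18), neither of them called in G9Gl against WT. The call of Ifit2 was lost without replicate 2 of G9Gl (fitted log2 difference -0.97) or replicate 3 of S1S2 (-0.98). It was also lost without the filter, with at least 10 counts in every library and with glmTreat. The calls of Ifit1 and Irf5 between the mutants were lost with glmTreat as well (adjusted p = 0.634 and 0.192).

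The order of Samd9l, which 0.566% of all genes had, was found in 0 of the 126 genes, so nothing is read from that count. The one gene called in opposite directions was Apobec3, a cytidine deaminase that restricts retroviruses, and it went the other way, as 0.952% of all genes did. Apobec3 measured 7.34 ± 0.358 CPM in WT. It fell to 3.05 ± 0.435 CPM in S1S2 (log2 difference -1.26, edgeR adjusted p = 1.03e-07) and rose to 24.1 ± 1.19 in G9Gl (1.71, 3.40e-11). With glmTreat the call of Apobec3 in S1S2 was lost (adjusted p = 0.0946), and with it the opposite directions by calls.

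**Figure D3:**
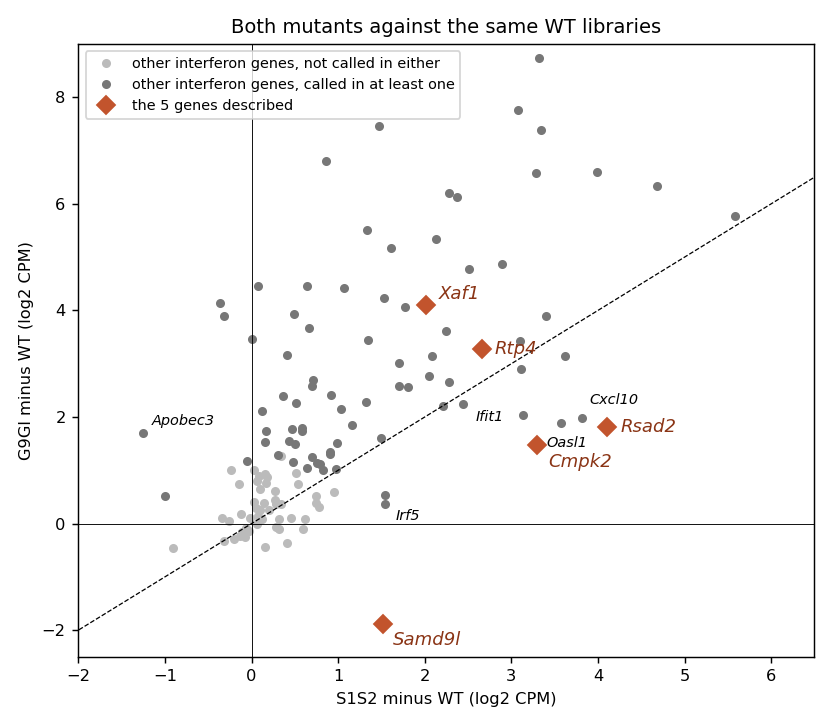
Log2 difference from WT in S1S2 (horizontal) and G9Gl (vertical) for the 126 other interferon genes measured (grey points) and the 5 genes described (diamonds). The dashed line marks equal differences, and both axes use the same WT libraries. Xaf1 and Rtp4 lie above the line with most called genes, Cmpk2 and Rsad2 lie below it beside Ifit1, Oasl1 and Cxcl10, and Samd9l lies in the lower right. The 6 other interferon genes whose means were above WT in S1S2 and below it in G9Gl lie closer to the origin, at no more than 0.60 and no less than -0.43.

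Among the effectors, 31 of 79 were higher and 1 lower in S1S2, 61 higher and 0 lower in G9Gl, and 39 higher and 4 lower in G9Gl than in S1S2. The shares higher were 39.2%, 77.2% and 49.4%, against 4.66%, 6.77% and 7.97% of all genes, and those of all genes lower were 4.34%, 3.4% and 5.08%. Ranked by the difference of mean log2 CPM at a prior count of 2, the effectors that rose most in S1S2 were Oas3, an oligoadenylate synthetase, at least 54.4-fold above WT, and Sp100, a nuclear body protein, at least 26.5-fold. In G9Gl they were Trim30a, a tripartite motif protein, which rose from 0.141 to 86.5 CPM, and Oas1g, at least 186-fold above WT. Slfn2, with 0 counts in WT, was at least 132-fold higher in G9Gl. Between the mutants Slfn2 (0.133 CPM in S1S2 and 12.7 in G9Gl) and Tgtp1, a GTPase (0.348 and 25.7 CPM), had the highest values of that difference. For genes this low in one genotype the ranking depends on the prior count. Several of these genes belong to gene families, among which reads may be divided. Shared sequence was measured for the 5 genes only, so the size of this uncertainty is not known.

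Of 17 ligand and receptor genes, 5 passed the filter, all of them receptor genes, and none was called in any comparison by edgeR. With the fold limit left out (adjusted p of at most 0.01), 1 was higher and 1 lower in S1S2, 1 higher and 2 lower in G9Gl, and 1 higher and 1 lower between the mutants. The 12 others had at most 3 counts in any library. For the next 3 lists, the shares of all genes called higher were 4.66% in S1S2, 6.77% in G9Gl and 7.97% in G9Gl against S1S2, and nothing is read from counts near them. Of 12 signalling genes and regulatory factors, 3 were higher in S1S2, 3 in G9Gl, and 3 higher and 1 lower in G9Gl than in S1S2. Nlrc5, the activator of class I antigen presentation genes, had the order of Xaf1, at 0.896 ± 0.0368 CPM in WT, 4.62 ± 0.32 in S1S2 and 71.8 ± 6.48 in G9Gl, and Irf7 had it too. Of 18 nucleic acid sensors and adaptors, 3 were higher and 1, Tlr4, lower in S1S2. The call of Tlr4 was lost without replicate 3 of WT (fitted log2 difference -0.93) or replicate 1 of S1S2 (-0.95). In G9Gl 7 were higher, and 4 were higher in G9Gl than in S1S2. Ifih1, the RNA sensor MDA5, and the sensor Zbp1 rose in both mutants, by log2 differences of 2.28 and 2.21 in S1S2 and 2.67 and 2.20 in G9Gl, and were not called between them, as with Rtp4. Tlr7 rose in G9Gl alone by the call rule (0.183 to 4.25 CPM). It was also higher in G9Gl than in S1S2, by a log2 difference of 4.50 (edgeR adjusted p = 3.38e-10). Of 12 negative regulators, 1 (8.33%) was higher in S1S2 (Usp18, which removes Isg15 from proteins and dampens receptor signalling), 3 were higher in G9Gl, and 2, Usp18 and the ubiquitin ligase gene Trim21, were higher in G9Gl than in S1S2. Between the mutants, the calls of Irf7 and Trim21 were lost with glmTreat (adjusted p = 0.0302 and 0.228).

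Relatives and partners of the 5 genes, such as other nucleotide kinases, inhibitors of apoptosis and receptor transporters, were examined too. Of 29 measured, 1 (3.45%) was called in each comparison, against 9%, 10.2% and 13.1% of all genes, with 1 higher and 0 lower in S1S2, 0 higher and 1 lower in G9Gl, and 0 higher and 1 lower in G9Gl than in S1S2. With 29 genes nothing is read from these shares. Each call was Reep1, a membrane protein of the endoplasmic reticulum that, like the receptor transporters, aids odorant receptors. Reep1 had the order of Samd9l, at 0.487 ± 0.126 CPM in WT, 2.16 ± 0.29 in S1S2 and at or under 1 count per library in G9Gl, at least 20.8-fold lower than in S1S2. Xiap, the partner of Xaf1, was at 150.5, 157.9 and 141.9 CPM in WT, S1S2 and G9Gl, and Cmpk1, the cytosolic relative of Cmpk2, at 60.3, 61.96 and 70.98 CPM. Neither was called.

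Promoters of the listed genes were compared with those of the members. Of the 79 measured effectors, 65 had a RefSeq promoter, and 34 of these (52.3%) held the ISRE, against 3.99% of all 27025 genes. Of the genes with the order of Cmpk2 and Rsad2, Ifit1 and Cxcl10 held it and Oasl1 did not. Of the 14 genes with the order of Xaf1 and a promoter, 9 held it, and of the 7 with that of Rtp4, 6 did. The ISRE letters were thus present in genes of each of these orders.

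Genes around the 5 were examined for changes shared across a region. Within 300 kb lie 52 annotated genes, of which 19 were measured. Of these, 3 were called in S1S2 (all higher), 6 in G9Gl (3 higher and 3 lower) and 6 between the mutants. These are 15.8%, 31.6% and 31.6% of the 19, beside 9%, 10.2% and 13.1% of all genes tested. Near Samd9l, Gm20559, a non-coding transcript 26.1 kb downstream on the same strand, was at 2.73 ± 0.956 CPM in WT, 15.9 ± 0.506 in S1S2 and 0.241 ± 0.0232 in G9Gl. Its log2 differences from WT were 2.58 (edgeR adjusted p = 9.54e-10) and -3.10 (8.38e-08), each larger than that of Samd9l. Gm43197, annotated within the span of Gm20559 on the same strand, followed with 0.873 CPM in WT, 7.29 in S1S2 and at most 3 counts per library in G9Gl. The 2 annotations overlap, so they are not independent measurements. On the other side of Samd9l, Vps50, a subunit of an endosomal tethering complex that starts 98.8 kb away, did not follow, with log2 differences of -0.07 in S1S2 (edgeR adjusted p = 0.271) and -0.04 in G9Gl (0.506). Gm43294, also on that side, was not called either.

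Around Cmpk2 and Rsad2 no other gene was measured within 300 kb. Rnf144a and a miRNA gene are annotated there, with at most 2 counts in any library. Around Xaf1, 13 genes were measured. The sphingosine phosphate transporter gene Spns2, 137.9 kb away, rose in both mutants (log2 differences 1.33 and 2.14), while Spns3 (1.67) and Pitpnm3 (3.36) rose in G9Gl from levels under 0.2 CPM. The fitted log2 difference of Pitpnm3 in G9Gl ranged from 3.70 without replicate 1 of WT to 5.77 without replicate 3 of WT, so its size is uncertain. The low-count transcript 4930563E22Rik was higher in G9Gl than in S1S2 by 0.94, a call lost with DESeq2, with replicate numbers as a block and in 4 of 6 fits that left out a library (fitted values 0.80 to 1.23). Smtnl2, Med31 and Txndc17, 75.4, 86.0 and 91.6 kb from Xaf1, were not called in any comparison, and Fbxo39, which begins 0.711 kb beyond its end, had at most 5 counts. Around Rtp4, the overlapping Masp1, a complement protease gene, went the opposite way, from 17.2 ± 0.376 CPM in WT to 3.84 ± 0.484 in G9Gl (log2 difference -2.15), and was 19.3 CPM in S1S2. St6gal1, a sialyltransferase gene 159.9 kb away, was higher in G9Gl than in S1S2 by 1.18 (edgeR adjusted p = 2.33e-05), a fitted value of 0.96 and no call without replicate 3 of S1S2. Over whole chromosomes the median log2 differences lay between -0.035 and 0.046 for chromosomes 6, 11 and 12, and on chromosome 16, which holds Rtp4, they were -0.08 in S1S2, -0.197 in G9Gl and -0.09 between the mutants.

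**Figure D4:**
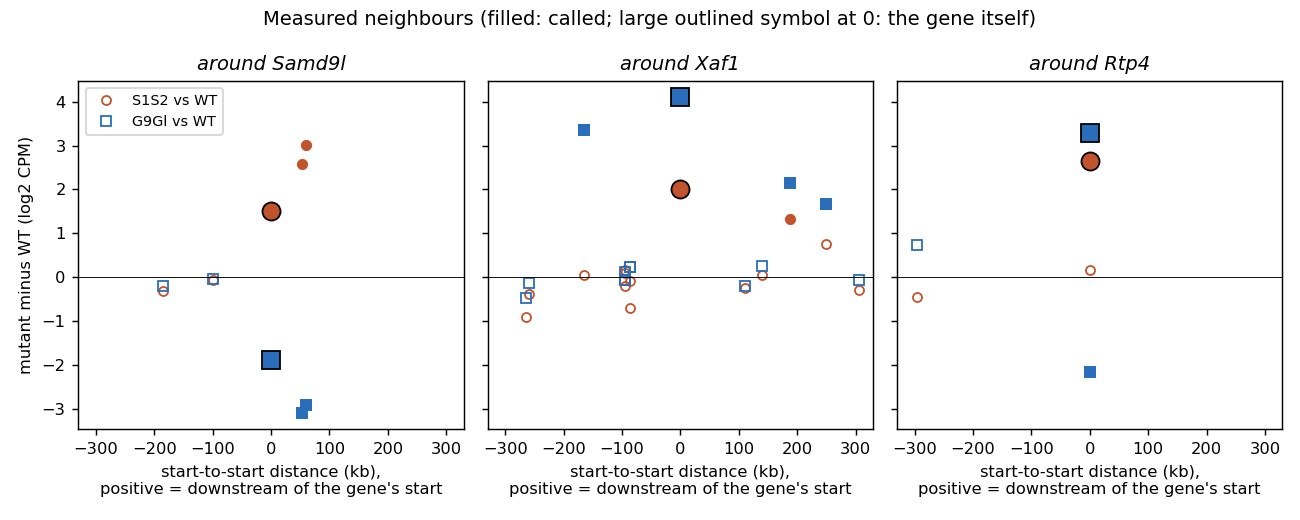
Log2 difference of each mutant from WT for measured genes within 300 kb of Samd9l, Xaf1 and Rtp4, against the distance between gene starts in kb. Filled symbols are called and open symbols are not, and the large outlined symbols at 0 are the genes themselves. The pair near 53.4 and 60.2 kb downstream of Samd9l splits between the mutants as Samd9l does.

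The genes whose pattern over the 9 libraries was most like that of each member were found by the root mean square difference of log2 CPM after centring each gene on its mean, among the 15540 genes tested. For Rsad2 they were Cxcl10 (0.244), Oasl1 (0.32) and Cmpk2 (0.345). For Cmpk2 they were Oasl1 (0.285), Atp1b1, a sodium pump subunit (0.295), and Cxcl10 (0.325), with Rsad2 at rank 4. Each of the pair was thus among the 4 genes nearest to the other, and the other nearest genes were interferon genes except Atp1b1. For Xaf1 they were Trim34a (0.184), C920009B18Rik (0.246) and Trim12c (0.283), with Rtp4 at rank 50. The 2 tripartite motif genes belong to a gene family and their shared sequence was not measured, so their reads are uncertain. For Rtp4 they were Oasl2 (0.221), the phospholipase gene Pla1a (0.241) and the guanylate-binding protein gene Gbp3 (0.258), with Xaf1 at rank 67. For Samd9l they were Rragd (0.145), a GTPase of the lysosomal nutrient pathway, Gm45351 (0.152) and the kinase gene Dclk1 (0.177), none of them in the interferon lists. Of the members, Cmpk2 was the nearest to Samd9l, at a difference of 1.39. These distances describe 3 genotypes with 3 libraries each and were not tested. The members were chosen for their order in these same libraries, so nothing is read from which genes lie near them.

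Libraries held between 21319778 and 32157623 counts, so that 3 counts correspond to 0.0923 to 0.141 CPM, and all 5 genes lay above this in every library and passed the filter. All 10 fibroblast markers were measured, with summed levels of 11130 to 12750 CPM in WT, 8390 to 8458 in S1S2 and 8881 to 9747 in G9Gl. Of 11 blood cell markers, 3 were measured and 5 had at most 3 counts in every library, and the summed level was 6.58 to 6.77 CPM in WT, 6.48 to 6.71 in S1S2 and 6.57 to 7.37 in G9Gl. Of 4 endothelial markers 2 were measured (sums of 0.123 to 0.193, 1.55 to 1.70 and 0.79 to 2.35 CPM), and of 5 epithelial markers 1 (sums of 0.297 to 0.548, 4.66 to 5.55 and 0.294 to 0.395 CPM). Within the fibroblast list, 5 of 10 were called lower in S1S2 and 0 higher (4.34% and 4.66% of all genes), with log2 differences of -3.01 for Col3a1, -2.60 for Col1a2, -2.01 for Pdgfra, -1.25 for Thy1 and -1.13 for Pdgfrb. In G9Gl, Pdgfra (-1.84) and Pdgfrb (-1.33) were lower and Thy1 (2.93) was higher than in WT, beside 3.4% and 6.77% of all genes, and Col1a2, Col3a1 and Thy1 were higher than in S1S2, beside 7.97%. The part of these cells and markers in the results was not tested. Suv39h1 was at 103 to 112.5 CPM in WT and 38.3 to 44.3 in S1S2, Ehmt2 at 113.9 to 131.7 in WT and 51.9 to 57.4 in G9Gl, and Ehmt1 at 102.3 to 105.6 in WT and 48.6 to 51.8 in G9Gl. Suv39h2 RNA was higher in S1S2 (52.7 to 57.4 CPM) than in WT (33.2 to 34.4), and since a frameshift need not lower RNA, its level does not check the label.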

How the data were processed

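Stranded total RNA of 9 MEF samples was sequenced as 75 bp read pairs. As the study's RNA-seq methods state, reads were trimmed with cutadapt and aligned by the authors to GRCm38 (STAR 2.5.2b) with the options that TEtranscripts advises. These methods give TEtranscripts for counting genes, while the ChIP-seq methods name count matrices made with snakePipes. Which of these made the deposited counts is not stated. The annotation release and the strand setting are not given in the sources used here. Deposited were raw counts for each Ensembl gene, which the authors had not normalized. Of 47937 genes, 47224 matched GENCODE M21, which gave symbols, positions and exon lengths.

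Counts were fitted in R 4.3.3 with edgeR 4.0.16 (filterByExpr, TMM, glmQLFit, glmQLFTest), all 9 libraries in 1 fit without a replicate block, and 15540 genes were tested. Calls needed a p of at most 0.01 after Benjamini-Hochberg adjustment and a fitted fold change of at least 2. All adjusted p-values are two-sided and from this fit. Printed log2 differences are those of mean log2 CPM (prior count 2), with the SE from the replicate spread, and fitted values are named as such. Genes with at most 3 counts in every library of a genotype were taken as at the floor, and folds against them are lower bounds. The fit was tested on simulated data. The labels do not say whether replicates came from separate cultures, so p-values measure only the spread between these samples. Replicate pairs differed by more than counting noise. Reads lack molecular identifiers, so floors cover counting error only.

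The members, the gene lists and the marker lists were chosen with earlier results of these data known. Named genes are the members, the 2 highest and 2 lowest called genes per list and comparison, listed genes called in opposite directions, called neighbours within 300 kb, the 3 nearest patterns per member and the targeted genes. Ifit1, Ifit2, Xiap, Cmpk1, the fibroblast markers and the uncalled or untested neighbours were named after their values were seen. Alternatives were DESeq2 1.42.0, other size factors, filters, thresholds and samples, the replicate block, leaving out each library, a prior count of 0.25 and a window of 1000 kb.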

Additional observations from a re-analysis of the deposited data

Results flagged for a closer look

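Of 51 named genes and markers, 12 had every S1S2 library on one side and every G9Gl library on the other side of all WT libraries, as did 10.8% of all genes tested. For Samd9l the log2 difference of G9Gl minus S1S2 was -3.39, and it was not tested, because the gene was chosen by these values. The direct comparison of the mutants (edgeR) was called for the others. Above WT in S1S2 and below it in G9Gl were Rragd (-3.50, adjusted p = 2.46e-10), Dclk1 (-3.59, 3.16e-13), Gm45351 (-3.27, 3.46e-06), Reep1 (-4.76, 4.92e-09), Gm20559 (-5.68, 1.44e-12), Gm43197 (-5.93, 3.05e-11) and Masp1 (-2.32, 8.60e-13). Of these, Rragd, Dclk1 and Gm45351 were named for being like Samd9l, so their direction is set by that choice, as is the place here of Reep1, Apobec3 and Thy1, which were taken in for calls in opposite directions. The count of 12 is therefore not comparable with the share of all genes. Gm45351, Reep1 and Gm43197 had at most 3 counts per library in G9Gl, so the sizes of their differences are uncertain. Below WT in S1S2 and above it in G9Gl were Apobec3 (2.96, adjusted p = 1.45e-13), the fibroblast marker Thy1 (4.18, 2.40e-15), Tlr4 (1.52, 1.37e-10) and St6gal1 (1.18, 2.33e-05). Against WT, Masp1 in S1S2 (0.17) and Tlr4 in G9Gl (0.52) were not called, nor was St6gal1 in either mutant (-0.45 and 0.73). For these genes the direct comparison of the mutants does not show a change on both sides of WT.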

How the results depend on the processing

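The log2 differences of the 5 genes moved by less than 1 SD of the replicates under DESeq2, its size factors, no composition factor, a prior count of 0.25 and the replicate block, in 75 of 75 values. Leaving out each library gave these ranges. For Samd9l they were 1.46 to 1.60 (S1S2 against WT), -1.93 to -1.79 (G9Gl against WT) and -3.44 to -3.36 (G9Gl against S1S2). For Cmpk2 they were 3.22 to 3.39, 1.26 to 1.59 and -2.04 to -1.71. For Rsad2 they were 4.06 to 4.13, 1.68 to 1.90 and -2.42 to -2.21. For Xaf1 they were 1.83 to 2.15, 3.92 to 4.24 and 1.97 to 2.19, and for Rtp4 2.56 to 2.74, 3.19 to 3.34 and 0.53 to 0.71. In the same order, called interferon genes ranged from 39 to 42, 71 to 77 and 50 to 56, called neighbours from 3 to 4, 6 to 6 and 4 to 7, and called genes of the whole table from 1296 to 1426, 1515 to 1599 and 1981 to 2076.

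Counts moved by over 1.5 times with the filter, the threshold and the window. With at least 10 counts in every library, which removes genes that are silent in a genotype, the calls in S1S2, in G9Gl and between the mutants were 728, 682 and 962 genes in all, 1, 2 and 3 neighbours, and 25 (S1S2) and 34 (between) interferon genes. With the limit at an adjusted p of 0.05 and no fold limit they were 7599, 7138 and 8288 genes in all, 94, 112 and 103 interferon genes, and 6 (S1S2) and 13 (between) neighbours. With glmTreat 735, 1045 and 1341 genes were called in all. A window of 1000 kb held 8, 12 and 11 called neighbours of 49 tested (16.3%, 24.5% and 22.4%), against 15.8%, 31.6% and 31.6% of 19 within 300 kb and 9%, 10.2% and 13.1% of all genes.

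The replicate numbers are not said to pair the samples, and same-numbered libraries did not deviate together, with correlations of -0.07 to 0.12. With the replicate block, 42, 75 and 54 interferon genes were called, against 40, 74 and 53 without it, and 1383, 1568 and 2022 genes in all. Of 985 values of other named genes and markers under settings other than leaving out a replicate, 962 stayed called and 23 lost the call. A further 50 had no value because the gene failed the filter, 48 of them under the filter of 10 counts in every library. Slfn2 in S1S2 lost its call in 5 of 6 fits without a library, and Gbp3 between the mutants lost it without replicate 1 of G9Gl (0.95). With 3 counts at 0.0923 to 0.141 CPM, changes of genes silent in WT are bounds.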
